A study of Mus musculus with 72 samples.

Results

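The genes described here are 33 enzymes, carriers and regulators of fatty acid and triglyceride synthesis, taken as a named list and found in the count table by their Ensembl identifiers. All 33 are among the 51912 genes of the table, and all 33 are among the 19362 genes that passed the filter on low counts. Their RNA was measured in livers of inbred, wild-type C57BL/6J and DBA/2J mice of both sexes, fed a Low Protein, a Medium Protein or a Control diet, in 12 groups of 6 mice and 1 library per mouse. The diets began at 10 weeks of age and lasted 13 weeks, so every mouse was 23 weeks old, was kept at about 22 °C and had been fasted for 16 h when the liver was frozen. The comparisons ask how lowering dietary protein changes the liver in different sexes and strains. Whole liver was sequenced, so the values average over all its cells, and a further genetic background named in the series title is not analysed here. The labels carry short codes that read like plate positions. Groups share the row letters but follow one another through the column numbers, so a column effect and a group difference can be told apart only in part, which was not tested.

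In the liver, new fatty acid is built in the cytosol from acetyl-CoA, which ATP citrate lyase makes from exported citrate, and the reducing power comes as NADPH from the pentose phosphate pathway and malic enzyme. Acetyl-CoA carboxylase and fatty acid synthase make palmitate, desaturases add double bonds, and acyltransferases and lipins join the acyl chains to glycerol to give triglyceride. Insulin, acting through SREBP-1c, and glucose, acting through ChREBP, switch many of these genes on after feeding, and fasting lowers the pathway.

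The libraries held 26937142 to 38447469 expected counts each, with a median of 32390150. The hepatocyte transcript Alb was abundant in every library, between 20490 and 70980 counts per 1000000 counts (CPM, after TMM scaling). Of 7 adipocyte markers, 2 passed the filter, with Fabp4 between 1.15 and 18.8 CPM and Cfd between 0 and 12.7 CPM, and Adipoq ranged from 0 to 1.17 CPM. In 4 libraries more than 3% of counts fell on ribosomal-like RNA, between 5.16% and 21.7%, against at most 2.56% in the other libraries. These were replicates 1 and 6 of C57BL/6J M Control, replicate 6 of C57BL/6J M Medium Protein and replicate 4 of DBA/2J M Control. No libraries of a group were alike within counting noise, since the lowest chi-square per degree of freedom over 180 within-group pairs was 16.8.

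Among the regulators, Srebf1, which encodes the SREBP-1 transcription factors, ranged from 22.5 to 185 CPM over the 72 libraries. Mlxipl, which encodes the glucose-responsive factor ChREBP, ranged from 58.4 to 184 CPM, and Nr1h3, the oxysterol receptor LXR alpha, from 43.9 to 69.7 CPM. Pparg, a nuclear receptor best known in fat cells, ranged from 2.74 to 12.5 CPM. Thrsp and Mid1ip1 encode the related Spot 14 proteins that act on acetyl-CoA carboxylase and lipogenesis, and they ranged from 2.63 to 89.2 CPM and from 2.67 to 19.6 CPM. Within a group, the spread of these genes between animals differed widely, from an SD of 0.13 (log2) for Nr1h3 to 0.768 for Thrsp, with Srebf1 at 0.518 and Mlxipl at 0.202.

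Of the genes that supply precursors, Slc25a1, the mitochondrial citrate carrier, ranged from 36.4 to 98.6 CPM, and Acly, ATP citrate lyase, from 59.3 to 144 CPM. Acss2, which makes cytosolic acetyl-CoA from acetate, ranged from 32.7 to 119 CPM. Me1, the NADPH-producing malic enzyme, ranged from 28.7 to 155 CPM. The pentose phosphate enzymes were G6pdx, its first dehydrogenase, at 3.83 to 8.71 CPM, Pgd, its other dehydrogenase, at 8.35 to 16.7 CPM, Tkt, transketolase, at 33.6 to 93.3 CPM, Taldo1, transaldolase, at 23.5 to 52.4 CPM, and Rpia, ribose-5-phosphate isomerase, at 1.68 to 4.3 CPM.

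Of the synthesis and desaturation enzymes, the acetyl-CoA carboxylases Acaca, the cytosolic form, and Acacb, the mitochondrial form, ranged from 50.2 to 179 CPM and from 45.1 to 161 CPM. Fasn, fatty acid synthase, ranged from 63.6 to 355 CPM. Scd1, the main liver stearoyl-CoA desaturase, ranged from 316 to 11218 CPM, and its relative Scd2 from 2.69 to 10.5 CPM. Fads1 and Fads2, the desaturases of polyunsaturated fatty acids, ranged from 194 to 569 CPM and from 116 to 439 CPM. Scd1 varied most of these 7 genes between animals of the same group, with an SD of 0.836 (log2), and Acaca varied least, with 0.186.

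Of the genes of acyl activation and glycerolipid assembly, the acyl-CoA synthetases Acsl3 and Acsl5 ranged from 8.69 to 32.7 CPM and from 156 to 368 CPM. The glycerol-3-phosphate acyltransferases that start the assembly were Gpam, the mitochondrial form, at 91.5 to 224 CPM and Gpat4, a form of the endoplasmic reticulum, at 97.3 to 296 CPM. Agpat2 and Agpat3, which add the next acyl chain, ranged from 72.5 to 146 CPM and from 148 to 270 CPM. The phosphatidic acid phosphatases Lpin1 and Lpin2 ranged from 11.9 to 534 CPM and from 137 to 978 CPM. Mogat1, a monoacylglycerol acyltransferase, ranged from 0.0294 to 2.74 CPM, with as little as 1 count in a library, and its within-group SD of 0.852 (log2) was the highest of the 33. Dgat1 and Dgat2, which add the last acyl chain of triglyceride, ranged from 12.6 to 21.9 CPM and from 164 to 358 CPM, and Dgat1 had the lowest within-group SD, 0.12 (log2). Across the 33 genes the median within-group SD was 0.224 (log2).

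Promoter sequence from RefSeq (GRCm38.p6) was matched by symbol for 27 of the 33 genes, in 38 windows of 250 bases before to 50 bases after a transcription start, and it is shown for 4 genes whose levels are described below. The CCAAT box, the letters CCAAT on either strand, occurred in 19 of the 38 windows, against 37.4% of all 32851 windows. The E-box CACGTG occurred in 7.89% of them, in Lpin2, Mlxipl and Slc25a1, against 7.15% of all windows, and the GC box GGGCGG on either strand in 55.3%, against 35.7%. A single sterol element of the form TCACNCCAC was found, in Mlxipl (2.63% of the windows, against 1.24% of all), and neither the LXR repeat (AGGTCA, then 4 bases of any kind, then AGGTCA, in 0.0152% of all windows) nor a pair of E-boxes 5 bases apart was found. In the 250 bases before the start, written 5′ to 3′ on the gene's own strand, capitals mark a CCAAT box, read as ATTGG on the other strand, or an E-box. Fasn (chr11:120824548-120824797, minus strand) held CCAAT boxes that began 90, 62 and 59 bases before the start, the last pair overlapping. Thrsp (chr7:97417551-97417800, minus strand) held them at 79 and 52 bases, Slc25a1 (chr16:17928220-17928469, minus strand) held an E-box at 239 and a CCAAT box at 125 bases, and Acss2 (chr2:155517793-155518042, plus strand) held a CCAAT box at 73 bases. These matches describe the letters and not the binding of any factor.
Fasn: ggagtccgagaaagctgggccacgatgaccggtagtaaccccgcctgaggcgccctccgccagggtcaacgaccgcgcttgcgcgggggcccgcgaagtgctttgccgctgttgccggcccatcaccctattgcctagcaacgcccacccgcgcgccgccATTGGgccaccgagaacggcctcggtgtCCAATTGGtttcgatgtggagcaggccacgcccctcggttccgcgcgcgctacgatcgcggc
Thrsp: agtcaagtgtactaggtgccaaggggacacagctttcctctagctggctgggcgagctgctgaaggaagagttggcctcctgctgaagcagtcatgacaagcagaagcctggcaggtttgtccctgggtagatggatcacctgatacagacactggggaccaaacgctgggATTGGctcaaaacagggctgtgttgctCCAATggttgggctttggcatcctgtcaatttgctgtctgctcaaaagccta
Slc25a1: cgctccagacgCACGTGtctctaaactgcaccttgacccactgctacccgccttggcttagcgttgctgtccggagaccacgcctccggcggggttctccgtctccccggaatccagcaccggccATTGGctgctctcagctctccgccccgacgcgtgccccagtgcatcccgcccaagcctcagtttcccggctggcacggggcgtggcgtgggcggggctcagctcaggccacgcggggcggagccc
Acss2: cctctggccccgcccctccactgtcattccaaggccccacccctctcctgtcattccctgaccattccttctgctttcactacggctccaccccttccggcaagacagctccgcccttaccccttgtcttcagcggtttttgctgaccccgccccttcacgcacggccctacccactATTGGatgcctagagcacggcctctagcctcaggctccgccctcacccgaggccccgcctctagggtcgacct

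Against Control, Low Protein gave calls for 9.09% of the 33 genes in C57BL/6J males and 12.1% in C57BL/6J females. In DBA/2J these shares were 0% in males and 3.03% in females. Of all genes tested 9.78%, 3.25%, 0.093% and 0.816% were called in the same order. The genes called were not the same in each strain and sex. In C57BL/6J males Scd1 and Acss2 fell and Acacb rose, and in C57BL/6J females the glycerolipid genes Gpat4, Agpat2, Dgat1 and Mogat1 rose. Calls come from edgeR's quasi-likelihood test, at a p below 0.05 after Benjamini-Hochberg adjustment over all 19362 genes. The p-values weigh a difference of group means against the spread between these mice. In whole liver fewer cells of a type and less RNA per cell cannot be told apart.

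In C57BL/6J males on Low Protein against Control, 1 gene was higher and 2 were lower. Of all genes tested 9.78% were called, 4.08% higher and 5.7% lower. Acss2 had 48.4, 53.1 and 64.4 CPM (lowest, median and highest of 6) on Low Protein, against 70.2, 83.8 and 100 CPM on Control, a log2 fold change of -0.60 ± 0.13 (SE, adjusted p = 0.00126). Every Low Protein mouse lay below every Control mouse for this gene, and the call held in all 12 fits that left out 1 library. Scd1 had 1286, 1780 and 2920 CPM on Low Protein, against 4008, 4514 and 8899 CPM on Control, which was 2.94-fold lower (log2 -1.56 ± 0.48, adjusted p = 0.0267), again with no overlap. Acacb had 71.8, 106 and 115 CPM on Low Protein, against 58.5, 61.5 and 88.5 CPM on Control (log2 0.57 ± 0.17, adjusted p = 0.0209), and its groups overlapped. The Scd1 call was lost without Low Protein replicate 2, 5 or 6 or Control replicate 2 or 4 (adjusted p 0.052 to 0.0706), and the Acacb call without Control replicate 1, 4 or 5 (0.0506 to 0.0551) and without the 4 ribosomal-rich libraries (0.121). Scaling by library totals put the median of all genes at 0.257 (log2) in this comparison, and then 9 of the 33 genes were called higher and 2 lower. Beside these genes, 4 of 5 red blood cell markers were higher on Low Protein, their summed level being 168, 376 and 476 CPM on Low Protein against 126, 163 and 259 CPM on Control, and the hepatocyte genes Serpina1c and Cps1 were lower (log2 -0.52 and -0.59), and their part in the result was not tested.

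Other genes separated the same groups without passing the test, and the share of all genes that did so was not counted. Srebf1 had 40.5, 62.7 and 75.1 CPM on Low Protein, against 76.1, 87 and 117 CPM on Control (log2 -0.57 ± 0.29, adjusted p = 0.219), without overlap. Scd2 had 3.85, 3.98 and 4.22 CPM on Low Protein, against 4.5, 5.06 and 7.32 CPM on Control (log2 -0.43, adjusted p = 0.0966), also without overlap. Lpin2 went the other way, with 631, 713 and 968 CPM on Low Protein against 369, 501 and 626 CPM on Control (log2 0.58, adjusted p = 0.0688). Fasn did not pass, at 183, 227 and 298 CPM on Low Protein against 205, 258 and 355 CPM on Control (log2 -0.22 ± 0.22, adjusted p = 0.608).

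In C57BL/6J females on Low Protein against Control, 4 genes were higher and none was lower, and all 4 belong to acyl activation and glycerolipid assembly. Of all genes 3.25% were called, 1.47% higher and 1.78% lower. Gpat4 had 246, 262 and 283 CPM on Low Protein, against 154, 170 and 221 CPM on Control (log2 0.56 ± 0.11, adjusted p = 0.00145), with no overlap and in all 12 fits that left out 1 library. Agpat2 had 90.5, 105 and 135 CPM on Low Protein, against 74.7, 83.8 and 89.5 CPM on Control (log2 0.41 ± 0.10, adjusted p = 0.0172), also with no overlap. Dgat1 had 17.3, 19.1 and 21.9 CPM on Low Protein, against 14.7, 15.8 and 18.3 CPM on Control (log2 0.25 ± 0.07, adjusted p = 0.0304), a small shift in a gene that varied little between mice. Mogat1 had 0.88, 1.95 and 2.74 CPM on Low Protein, against 0.117, 0.733 and 1.18 CPM on Control (log2 1.40 ± 0.42, adjusted p = 0.0464). The last 3 calls were each lost in some fits that left out 1 library. Agpat2 was lost without Low Protein replicate 2 or 3 or Control replicate 4 (adjusted p 0.0589 to 0.0749). Dgat1 was lost without Low Protein replicate 1, 3 or 6 or Control replicate 2, 3, 4 or 5 (0.0509 to 0.0922). Mogat1 was lost without Low Protein replicate 2, 3, 4, 5 or 6 or Control replicate 1, 2, 4 or 5 (0.0538 to 0.111). All 3 were also lost in a fit of the compared groups alone (0.118, 0.168 and 0.128) and under library totals (0.0527, 0.121 and 0.0652), and Dgat1 and Mogat1 with no filter on low counts (0.115 and 0.0892). Scd1 in these females had 441, 1059 and 3498 CPM on Low Protein, against 1360, 3000 and 6267 CPM on Control (log2 -1.23 ± 0.48, adjusted p = 0.148). The summed macrophage markers were 204, 225 and 967 CPM on Low Protein, against 169, 229 and 491 CPM on Control. Hepatocyte markers summed to 32112, 67011 and 77969 CPM on Low Protein, against 58235, 66563 and 70458 CPM on Control. None of these markers was called, and their part in the result was not tested.

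In DBA/2J females 1 gene was called higher on Low Protein than on Control. Of all genes 0.816% were called, 0.609% higher and 0.207% lower. This was Dgat1, with 14.4, 19.3 and 21.1 CPM on Low Protein against 12.8, 15 and 17.8 CPM on Control (log2 0.29 ± 0.07, adjusted p = 0.025). It was lost without Low Protein replicate 3, 4 or 6 or Control replicate 5 (adjusted p 0.0817 to 0.128), with no filter (0.0756), in the compared groups alone (0.24) and under library totals (0.229). Mlxipl came next and did not pass, with 80.7, 98.7 and 112 CPM on Low Protein against 108, 122 and 152 CPM on Control (log2 -0.37 ± 0.11, adjusted p = 0.108).

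In DBA/2J males none of the 33 genes was called by edgeR on Low Protein against Control. Of all genes 0.093% were called, 0.0465% higher and 0.0465% lower. At an unadjusted p below 0.05 edgeR gave 7 of the 33, against 7.62% of all genes, limma-voom called 0 and DESeq2 called 1, Acly. Acly had 99.6, 105 and 133 CPM on Low Protein, against 72.5, 83.6 and 96 CPM on Control (log2 0.44 ± 0.11, adjusted p = 0.0766), with no overlap. Tkt had 46.5, 51.6 and 70.3 CPM on Low Protein, against 35.8, 40.3 and 45.7 CPM on Control (log2 0.45 ± 0.13, adjusted p = 0.188), and its groups did not overlap either. Fasn had 117, 157 and 245 CPM on Low Protein, against 70.2, 106 and 140 CPM on Control (log2 0.63 ± 0.22, adjusted p = 0.391). The fitted change was above 0 for 26 of the 33 genes in these males, with a median log2 fold change of 0.192, against 0.009 over all genes tested. The same median was -0.078 in C57BL/6J males (all genes 0.01), -0.001 in C57BL/6J females (0.009) and 0.077 in DBA/2J females (-0.003).

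**Figure D1:**
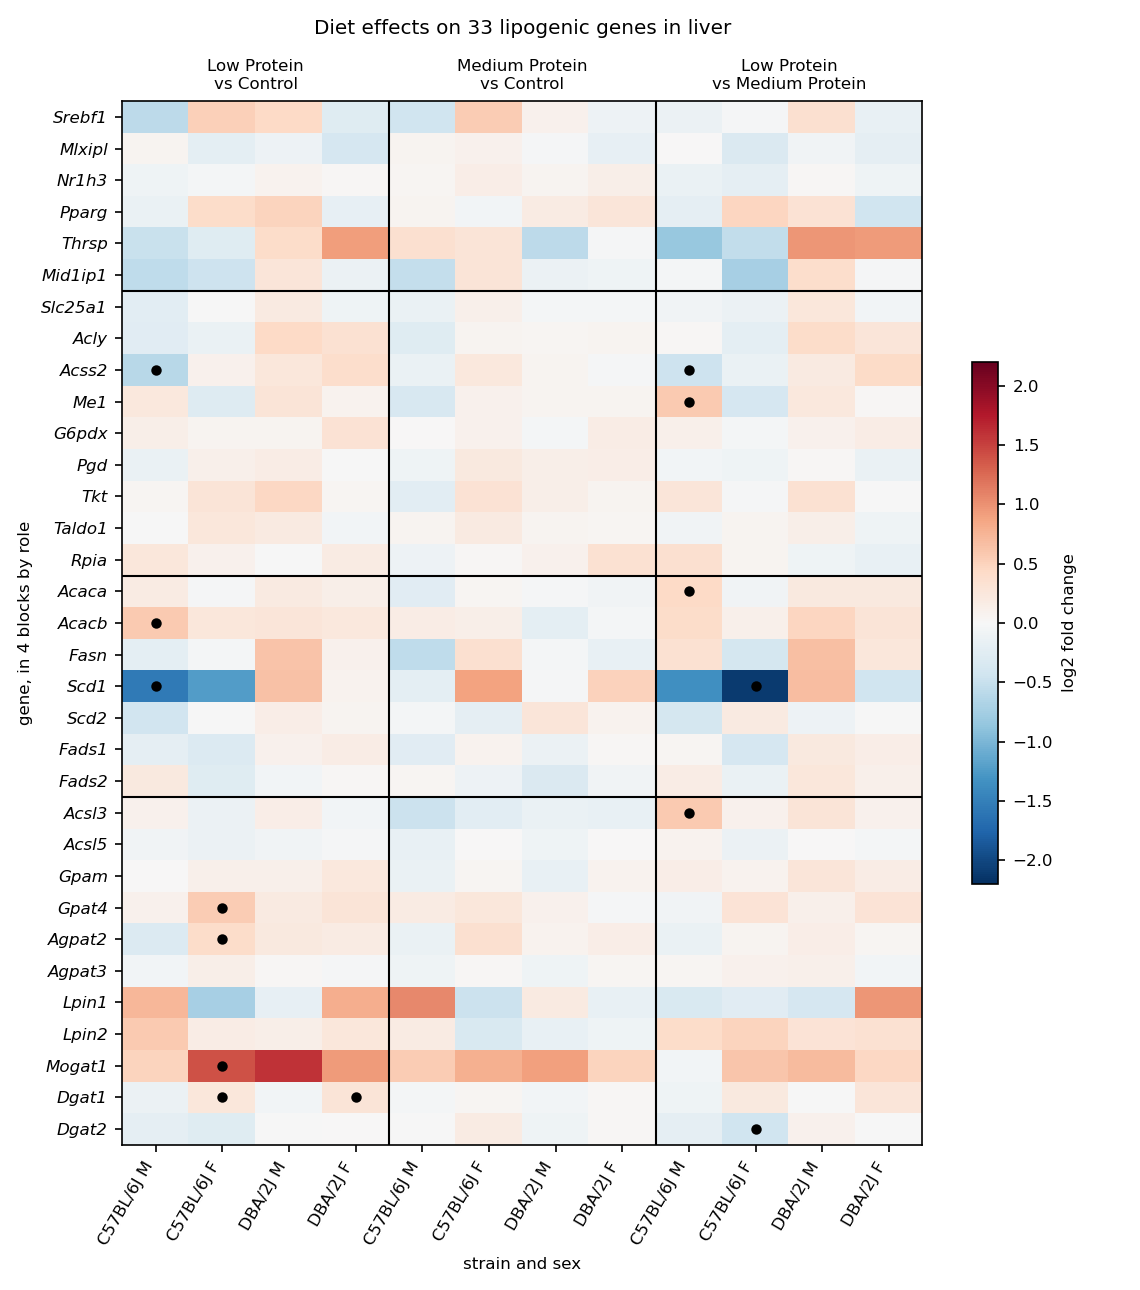
Log2 fold changes (colour) of the 33 genes (rows, in 4 blocks by role) in the 12 diet comparisons (columns, grouped as Low Protein against Control, Medium Protein against Control and Low Protein against Medium Protein, each in 4 combinations of strain and sex), with marks on the genes called at an adjusted p below 0.05. Calls are few and fall in the columns that contain Low Protein, and none is in a column of Medium Protein against Control.

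Averaged over the 4 combinations of strain and sex, 4 of the 33 genes were higher on Low Protein than on Control and none was lower. Of all genes 8.01% were called, 3.84% higher and 4.17% lower. Gpat4 had 120, 182 and 286 CPM over the 24 Low Protein mice, against 106, 158 and 241 CPM over the 24 Control mice (log2 0.29 ± 0.06, adjusted p = 0.000382). Mogat1 had 0.128, 0.879 and 2.74 CPM on Low Protein, against 0.0294, 0.416 and 1.18 CPM on Control (log2 1.11 ± 0.23, adjusted p = 0.000888). Acacb had 55.3, 106 and 161 CPM on Low Protein, against 58.5, 80.6 and 140 CPM on Control (log2 0.33 ± 0.08, adjusted p = 0.0078). These 3 genes had a fitted change above 0 in each combination, between 0.10 and 0.56 for Gpat4, between 0.49 and 1.59 for Mogat1 and between 0.24 and 0.57 for Acacb, and their calls held in all 48 fits that left out 1 library. Tkt was called as well (log2 0.21 ± 0.06, adjusted p = 0.0303), at 39.1, 54.5 and 93 CPM on Low Protein against 33.6, 45.5 and 84.9 CPM on Control. The Tkt call was lost without Low Protein replicate 5 of C57BL/6J F, 4 of C57BL/6J M or 1 of DBA/2J M (adjusted p 0.0504 to 0.0547) and with no filter on low counts (0.0552).

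A set of 9 regulators and enzymes of lipogenesis was read in every comparison, and these did not shift together on Low Protein against Control. Srebf1 had log2 fold changes of -0.57 in C57BL/6J M, 0.53 in C57BL/6J F, 0.43 in DBA/2J M and -0.27 in DBA/2J F, and none of them passed the test. Scd1 was at -1.56, -1.23, 0.65 and 0.07 in the same order, of which the first was called, and Acly at -0.25, -0.15, 0.44 and 0.33. Fasn was at -0.22, -0.04, 0.63 and 0.09, Acaca at 0.18, -0.02, 0.19 and 0.13, and Gpam at 0.00, 0.12, 0.10 and 0.24. Dgat2 was at -0.20, -0.26, 0.00 and 0.02, Mlxipl at 0.06, -0.22, -0.11 and -0.37, and Pparg at -0.14, 0.40, 0.49 and -0.18. Apart from Scd1 in C57BL/6J males, no value of these 9 genes was called in this comparison.

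**Figure D2:**
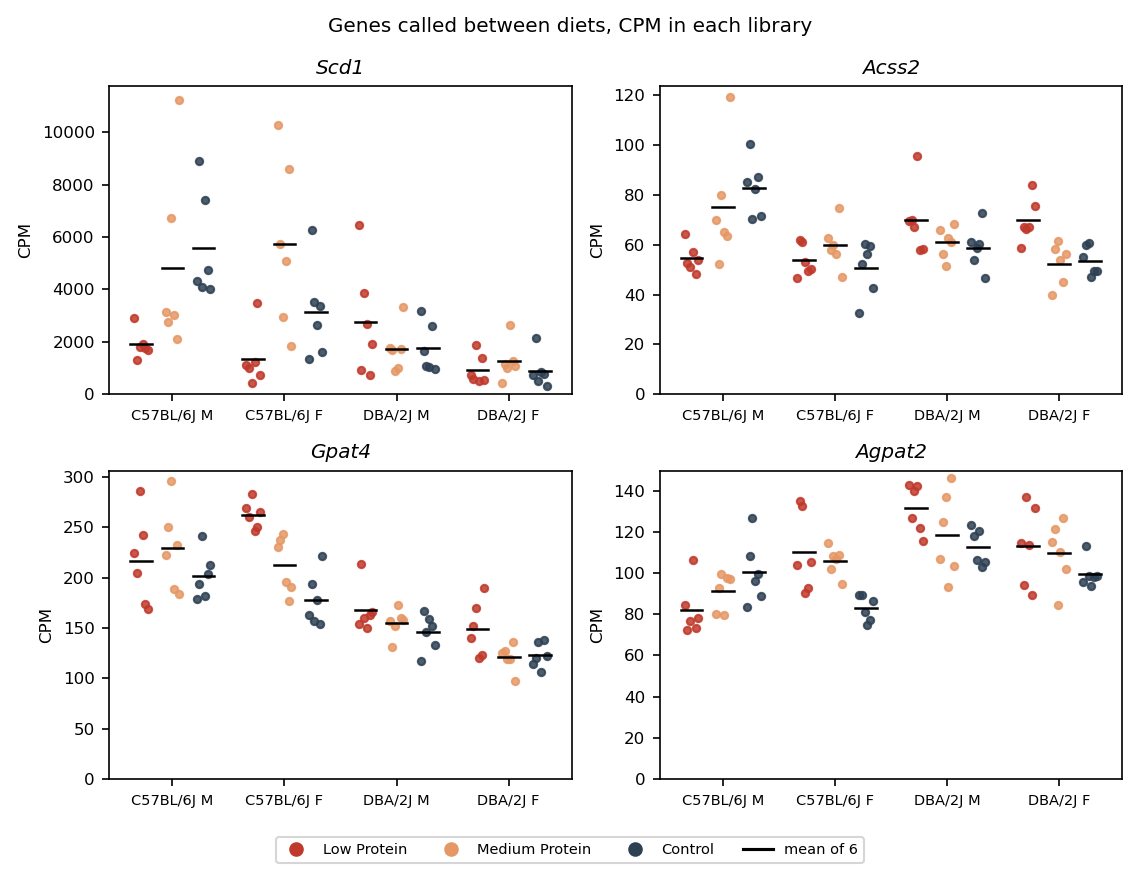
CPM (linear axis from 0) of Scd1, Acss2, Gpat4 and Agpat2 in each library, by strain and sex and by diet, with a bar at the mean of 6 mice. Scd1 lies at 1286 to 2920 CPM in C57BL/6J males on Low Protein against 4008 to 8899 CPM on Control, and Gpat4 lies at 246 to 283 CPM in C57BL/6J females on Low Protein against 154 to 221 CPM on Control.

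Whether the response to Low Protein differed between sexes and strains was tested directly. In C57BL/6J the response was lower in males than in females for 3 of the 33 genes and higher for none. Of all genes 4.56% differed, 1.85% with the higher response in males and 2.71% with the lower. For Agpat2 the difference of the responses was -0.70 ± 0.15 (log2, adjusted p = 0.00294), from a change of -0.30 in males and 0.41 in females. For Dgat1 it was -0.39 ± 0.10 (adjusted p = 0.017), from -0.13 in males and 0.25 in females, and for Acss2 -0.69 ± 0.19 (adjusted p = 0.023), from -0.60 in males and 0.09 in females. Without C57BL/6J F Low Protein replicate 3 the Acss2 difference had an adjusted p of 0.0521, and under library totals, which moved the median of all genes by 0.238, Acss2 (0.102) and Dgat1 (0.476) were lost and the split became 3 higher and 1 lower. The Dgat1 difference was also lost with no filter on low counts (0.0632). In DBA/2J no gene of the 33 differed between the sexes in edgeR's test, and 0% of all genes were called. At an unadjusted p below 0.05 there were 4 of the 33, against 7.63% of all genes. The smallest p was that of Dgat1, at -0.36 ± 0.10 (adjusted p = 0.309).

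Between strains, DBA/2J males responded more positively than C57BL/6J males in 3 of the 33 genes and more negatively in none. Of all genes 2.88% differed, 1.97% more positive in DBA/2J and 0.909% more negative. Acly differed by 0.69 ± 0.15 (log2, adjusted p = 0.00435), from a change of 0.44 in DBA/2J males and -0.25 in C57BL/6J males. Acss2 differed by 0.85 ± 0.19 (adjusted p = 0.00521), from 0.25 in DBA/2J males and -0.60 in C57BL/6J males, and both genes encode enzymes that make cytosolic acetyl-CoA. Agpat2 differed by 0.52 ± 0.15 (adjusted p = 0.0385), from 0.22 in DBA/2J males and -0.30 in C57BL/6J males, but this call was lost in 14 of 24 fits that left out 1 library (0.0514 to 0.0995), with no filter (0.083) and under library totals (0.19). Scd1 had the largest fitted difference of these, 2.21 ± 0.67, and did not pass (adjusted p = 0.0548). In females no gene of the 33 was called between strains, while 0.093% of all genes were. At an unadjusted p below 0.05 edgeR's test gave 4 of the 33, against 11.1% of all genes. Acly came nearest there, at 0.48 ± 0.15 (adjusted p = 0.166).

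The Medium Protein diet gave no call against Control in any combination of strain and sex by edgeR, DESeq2 or limma-voom. At an unadjusted p below 0.05 edgeR gave 6 of the 33 genes in C57BL/6J M, 5 in C57BL/6J F, 1 in DBA/2J M and 1 in DBA/2J F, against 10.2%, 7.57%, 3.97% and 2.67% of all genes in the same order. After adjustment 0.418%, 0%, 0.00516% and 0.00516% of all genes were called. In C57BL/6J males the smallest p belonged to Lpin1, with 58.1, 136 and 534 CPM on Medium Protein against 37.7, 84.6 and 196 CPM on Control (log2 1.06 ± 0.41, adjusted p = 0.304), and then to Acsl3 (log2 -0.48, adjusted p = 0.31). In C57BL/6J females they belonged to Agpat2, with 94.8, 108 and 114 CPM on Medium Protein against 74.7, 83.8 and 89.5 CPM on Control (log2 0.35 ± 0.10, adjusted p = 0.288), and to Tkt (log2 0.32, adjusted p = 0.518). The Agpat2 groups did not overlap, and the Medium Protein mice of this strain and sex lay within the range of the Low Protein mice. In DBA/2J males Fads2 (log2 -0.31) and Mogat1 (0.90) came first and in DBA/2J females Rpia (0.34) and Nr1h3 (0.13), each with an adjusted p of 1. Averaged over the combinations, Mogat1 (0.68) and Acsl3 (-0.25) had the smallest p, with an adjusted p of 0.859, while 0% of all genes were called. At an unadjusted p below 0.05 there were 6 of the 33, against 5.37% of all genes.

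Low Protein was also set against Medium Protein. In C57BL/6J males 3 genes were higher and 1 was lower. Of all genes 6.53% were called, 2.42% higher and 4.11% lower. Under library totals, which put the median of all genes at 0.189 (log2), 8 of the 33 were higher and none was lower. Acaca had 128, 145 and 179 CPM on Low Protein, against 79.1, 111 and 130 CPM on Medium Protein (log2 0.44 ± 0.11, adjusted p = 0.00455), and every Low Protein mouse exceeded the Medium Protein median. Acss2 fell to 48.4, 53.1 and 64.4 CPM on Low Protein, against 52.2, 67.5 and 119 CPM on Medium Protein (log2 -0.46 ± 0.13, adjusted p = 0.0227). Me1 had 90, 129 and 146 CPM on Low Protein, against 35.6, 93.3 and 117 CPM on Medium Protein (log2 0.58 ± 0.18, adjusted p = 0.0402), and Acsl3 had 14.1, 27.6 and 32.7 CPM on Low Protein, against 11.3, 16 and 25.8 CPM on Medium Protein (log2 0.57 ± 0.19, adjusted p = 0.048). All 4 calls were lost in a fit of the compared groups alone (adjusted p 0.0713 for Acaca, 0.155 for Acss2, 0.213 for Me1 and 0.154 for Acsl3). Leaving out 1 library ended the call of Acss2 (Low Protein replicate 5 or Medium Protein replicate 6, 0.0712 to 0.215), of Me1 (Low Protein 4, 5 or 6 or Medium Protein 2 or 5, 0.0961 to 0.168) and of Acsl3 (Low Protein 1, 3, 5 or 6 or Medium Protein 2, 3, 4 or 5, 0.0664 to 0.143). The fold change of Acss2 was -0.285 (log2) without Medium Protein replicate 6 and -0.282 (adjusted p = 0.238) without the 4 ribosomal-rich libraries, which include it, and its call was also lost under library totals (0.177). Me1 (0.0583) and Acsl3 (0.0723) were lost with no filter on low counts, and Acsl3 in limma-voom (0.0603). The red blood cell markers moved here too, with 4 of 5 higher on Low Protein and summed levels of 168, 376 and 476 CPM on Low Protein against 146, 163 and 267 CPM on Medium Protein. The hepatocyte genes Serpina1c and Cps1 (log2 -0.45 and -0.61) and the adipocyte marker Cfd (-2.69) were lower, and the part of these markers was not tested.

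In C57BL/6J females 2 genes were lower on Low Protein than on Medium Protein and none was higher. Of all genes 1.94% were called, 0.924% higher and 1.02% lower. Scd1 had 441, 1059 and 3498 CPM on Low Protein, against 1838, 5412 and 10274 CPM on Medium Protein, which was 4.31-fold lower (log2 -2.11 ± 0.49, adjusted p = 0.00941), and the call held in all 12 fits that left out 1 library. Dgat2 had 164, 172 and 213 CPM on Low Protein, against 193, 242 and 308 CPM on Medium Protein (log2 -0.45 ± 0.11, adjusted p = 0.0196). The Dgat2 call was lost without Low Protein replicate 1 or 4 or Medium Protein replicate 4 or 5 (adjusted p 0.051 to 0.107) and under library totals (0.062), and in the compared groups alone neither gene was called (0.0725 for Scd1 and 0.0921 for Dgat2). In DBA/2J no gene of the 33 passed in either sex, and 0% of all genes were called in males and 0.0413% in females (0.0258% higher and 0.0155% lower). At an unadjusted p below 0.05 edgeR's test gave 8 of the 33 in males, against 5.7% of all genes, and 7 in females, against 7.61%. The smallest p in DBA/2J males was that of Acly (log2 0.40 ± 0.11, adjusted p = 0.457), with 99.6, 105 and 133 CPM on Low Protein against 76.4, 84.5 and 97.2 CPM on Medium Protein and no overlap, and then that of Fasn (0.67 ± 0.22, adjusted p = 0.659). In DBA/2J females it was that of Dgat1 (0.26 ± 0.07, adjusted p = 0.135), followed by Acss2 (0.41 ± 0.13, adjusted p = 0.298).

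Averaged over the 4 combinations, 4 genes were higher on Low Protein than on Medium Protein and 1 was lower. Of all genes 3.22% were called, 1.42% higher and 1.8% lower. Under library totals 7 of the 33 were higher and none was lower. Acacb had 55.3, 106 and 161 CPM on Low Protein, against 45.1, 82.3 and 139 CPM on Medium Protein (log2 0.32 ± 0.08, adjusted p = 0.0186), and Acaca had 58, 88.5 and 179 CPM on Low Protein, against 50.2, 80.3 and 142 CPM on Medium Protein (log2 0.20 ± 0.05, adjusted p = 0.0195). Both acetyl-CoA carboxylase genes were thus higher on Low Protein than on Medium Protein. Against Control, averaged over the combinations, Acacb was called higher and Acaca was not called. Lpin2 had 193, 469 and 978 CPM on Low Protein, against 137, 407 and 745 CPM on Medium Protein (log2 0.38 ± 0.11, adjusted p = 0.0247), and Gpam had 105, 184 and 224 CPM on Low Protein, against 98.9, 162 and 208 CPM on Medium Protein (log2 0.16 ± 0.05, adjusted p = 0.0428). Scd1 was lower, with 441, 1331 and 6469 CPM on Low Protein against 432, 2378 and 11218 CPM on Medium Protein (log2 -0.80 ± 0.24, adjusted p = 0.0406), although its 4 fitted changes did not share a direction (-1.35 in C57BL/6J M, -2.11 in C57BL/6J F, 0.68 in DBA/2J M and -0.44 in DBA/2J F). Scd1 was lost in 22 and Gpam in 23 of the 48 fits that left out 1 library (adjusted p up to 0.0928 and 0.0755), and Lpin2 without Low Protein replicate 4 of C57BL/6J F or 6 of DBA/2J M (0.0529 to 0.0594). Without the 4 ribosomal-rich libraries Scd1 (0.104) and Lpin2 (0.0539) were lost, and with no filter Scd1 (0.0565) and Gpam (0.079).

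More of these genes were called between strains than between diets, as among all genes, and the genes called were mostly lower in DBA/2J. The strain and sex comparisons average over diets and set 18 mice against 18. Diet comparisons within a strain and sex set 6 mice against 6. Averaged over diets, 3 of the 33 genes were higher and 17 lower in DBA/2J than in C57BL/6J males, while 51.1% of all genes were called (25.1% higher and 26% lower). In females 4 were higher and 19 lower, while 49.8% of all genes were called (24.1% higher and 25.7% lower). The median log2 fold change of the 33 genes was -0.146 in males and -0.202 in females, against -0.008 and -0.009 over all genes. A set of 15 genes was lower in both sexes, out of 17 in males and 19 in females, namely Acaca, Acly, Agpat3, Gpam, Gpat4, Lpin1, Lpin2, Me1, Mogat1, Pgd, Pparg, Scd1, Taldo1, Thrsp and Tkt, and Fads1 was the only gene called higher in both, out of 3 and 4. The share of all genes called the same way in both sexes was not computed, so this sharing has no background to be read against.

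Lpin1 had the largest fold change of the 33 genes in both sexes. Lpin1 had 11.9, 19.7 and 58.1 CPM in DBA/2J males, against 37.7, 135 and 534 CPM in C57BL/6J males, which was 7.99-fold lower (log2 -3.00 ± 0.25, adjusted p = 2.06e-16). In females it had 15.5, 18.7 and 47.7 CPM in DBA/2J, against 47.7, 168 and 367 CPM in C57BL/6J (log2 -3.01 ± 0.25, adjusted p = 1.45e-16), and the 2 ranges met at their edges. Lpin2 had 137, 280 and 512 CPM in DBA/2J males, against 369, 622 and 968 CPM in C57BL/6J males (log2 -1.11 ± 0.12, adjusted p = 9.42e-12). Among females Lpin2 had 167, 227 and 340 CPM in DBA/2J, against 402, 514 and 978 CPM in C57BL/6J (log2 -1.25 ± 0.12, adjusted p = 1.19e-13), also without overlap.

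Acaca, the cytosolic carboxylase, had the smallest adjusted p of the 33 genes in both sexes. It had 50.2, 65.5 and 86.1 CPM in DBA/2J males, against 79.1, 129 and 179 CPM in C57BL/6J males (log2 -0.90 ± 0.06, adjusted p = 1.48e-20). In females it had 52.9, 67.7 and 80.8 CPM in DBA/2J, against 90.9, 111 and 142 CPM in C57BL/6J (log2 -0.75 ± 0.06, adjusted p = 3.88e-17), and these ranges did not overlap. Me1 had 28.7, 37.8 and 45.1 CPM in DBA/2J males, against 35.6, 97 and 154 CPM in C57BL/6J males (log2 -1.48 ± 0.11, adjusted p = 3.41e-19), and all DBA/2J males lay below the C57BL/6J median. Tkt had 35.8, 45.8 and 70.3 CPM in DBA/2J males, against 44.7, 68.6 and 93.3 CPM in C57BL/6J males (log2 -0.58 ± 0.07, adjusted p = 5.2e-10). Thrsp had 3.99, 6.43 and 29.9 CPM in DBA/2J males, against 12.2, 33.2 and 89.2 CPM in C57BL/6J males (log2 -1.92 ± 0.26, adjusted p = 2.73e-09). Fasn had 63.6, 116 and 245 CPM in DBA/2J males, against 70, 218 and 355 CPM in C57BL/6J males (log2 -0.85 ± 0.13, adjusted p = 7.11e-08). Fasn was not called in females (log2 -0.20 ± 0.13, adjusted p = 0.188).

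Both glycerol-3-phosphate acyltransferases were lower in DBA/2J females. Gpat4 had 97.2, 124 and 190 CPM in DBA/2J females, against 154, 226 and 283 CPM in C57BL/6J females (log2 -0.72 ± 0.07, adjusted p = 2.98e-15), and Gpam had 91.5, 115 and 143 CPM in DBA/2J females, against 130, 179 and 216 CPM in C57BL/6J females (log2 -0.61 ± 0.06, adjusted p = 7.46e-15). Scd1 had 732, 1699 and 6469 CPM in DBA/2J males, against 1286, 3080 and 11218 CPM in C57BL/6J males (log2 -0.87 ± 0.27, adjusted p = 0.00577), and in females the change was -1.51 ± 0.28 (log2, adjusted p = 4.84e-06). The strain difference of Scd1 was 0.64 ± 0.38 (log2) less negative in males than in females, which did not pass (adjusted p = 0.256). Mlxipl differed in direction from most of the list, with 80.7, 112 and 152 CPM in DBA/2J females, against 58.4, 70.2 and 98.9 CPM in C57BL/6J females (log2 0.61 ± 0.07, adjusted p = 3.09e-12), and it was not called in males (log2 -0.11, adjusted p = 0.163). Pparg was lower in DBA/2J males (log2 -0.69, adjusted p = 8.73e-05) and DBA/2J females (log2 -0.72, adjusted p = 2.72e-05), and Acly likewise (log2 -0.21 and -0.18, adjusted p = 0.00281 and 0.0129). Higher in DBA/2J were Agpat2 (log2 0.41, adjusted p = 3.48e-08), Fads1 (0.19, adjusted p = 0.0195) and Dgat1 (0.11, adjusted p = 0.0228) in males, and Fads1 (0.52, adjusted p = 1.9e-09), Acsl3 (0.72, adjusted p = 6.17e-08) and Srebf1 (0.40, adjusted p = 0.0402) in females besides Mlxipl. Dgat2 was called in neither sex, at log2 -0.13 in males and -0.01 in females. The weakest calls were lost in some fits that left out 1 library, Gpam in males in 16 of 36 such fits. Taldo1 in males was lost without C57BL/6J M Control replicate 4 or Medium Protein replicate 6 (adjusted p 0.0554 to 0.0661). In females G6pdx, Srebf1 and Acsl5 were lost in 20, 14 and 5 of 36 fits. In the Control diet groups alone Agpat2 (0.24), Fads1 (0.793), Dgat1 (0.37), Gpam (0.214) and Taldo1 (0.0611) were not called in males, nor Acacb (0.284), G6pdx (0.0972), Pparg (0.0507), Taldo1 (0.727), Tkt (0.0848) and Acsl5 (0.174) in females. Library totals ended the calls of Gpam (0.192) and Taldo1 (0.148) in males and of Acly (0.118), G6pdx (0.204) and Acsl5 (0.173) in females. With no filter on low counts Gpam (0.122) and Taldo1 (0.0863) were lost in males and G6pdx (0.0997), Acsl5 (0.0675) and Srebf1 (0.0529) in females, and without the 4 ribosomal-rich libraries Gpam in males (0.0928).

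The strains also differed in marker genes of liver cell types. In DBA/2J males, against C57BL/6J males, 3 of 5 stellate cell markers were higher and 2 lower, 1 of 5 red blood cell markers was higher (Alas2) and 3 were lower, and of 7 macrophage markers Vsig4 was higher (log2 0.32) and Marco lower (-1.89). Pecam1 (0.31), of 4 endothelial markers, the adipocyte marker Fabp4 (0.69) and the hepatocyte genes Apoa1 and Serpina1c were also higher in these males, and the adipocyte marker Cfd was lower (-4.06). In DBA/2J females, against C57BL/6J females, 3 of 5 red blood cell markers and the macrophage markers Vsig4 and Marco were lower, Reln was higher and Lrat and Col1a1 were lower among the stellate cell markers, and among hepatocyte genes Serpina1c was higher and Cps1 lower. The part of these markers in the strain differences was not tested.

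**Figure D3:**
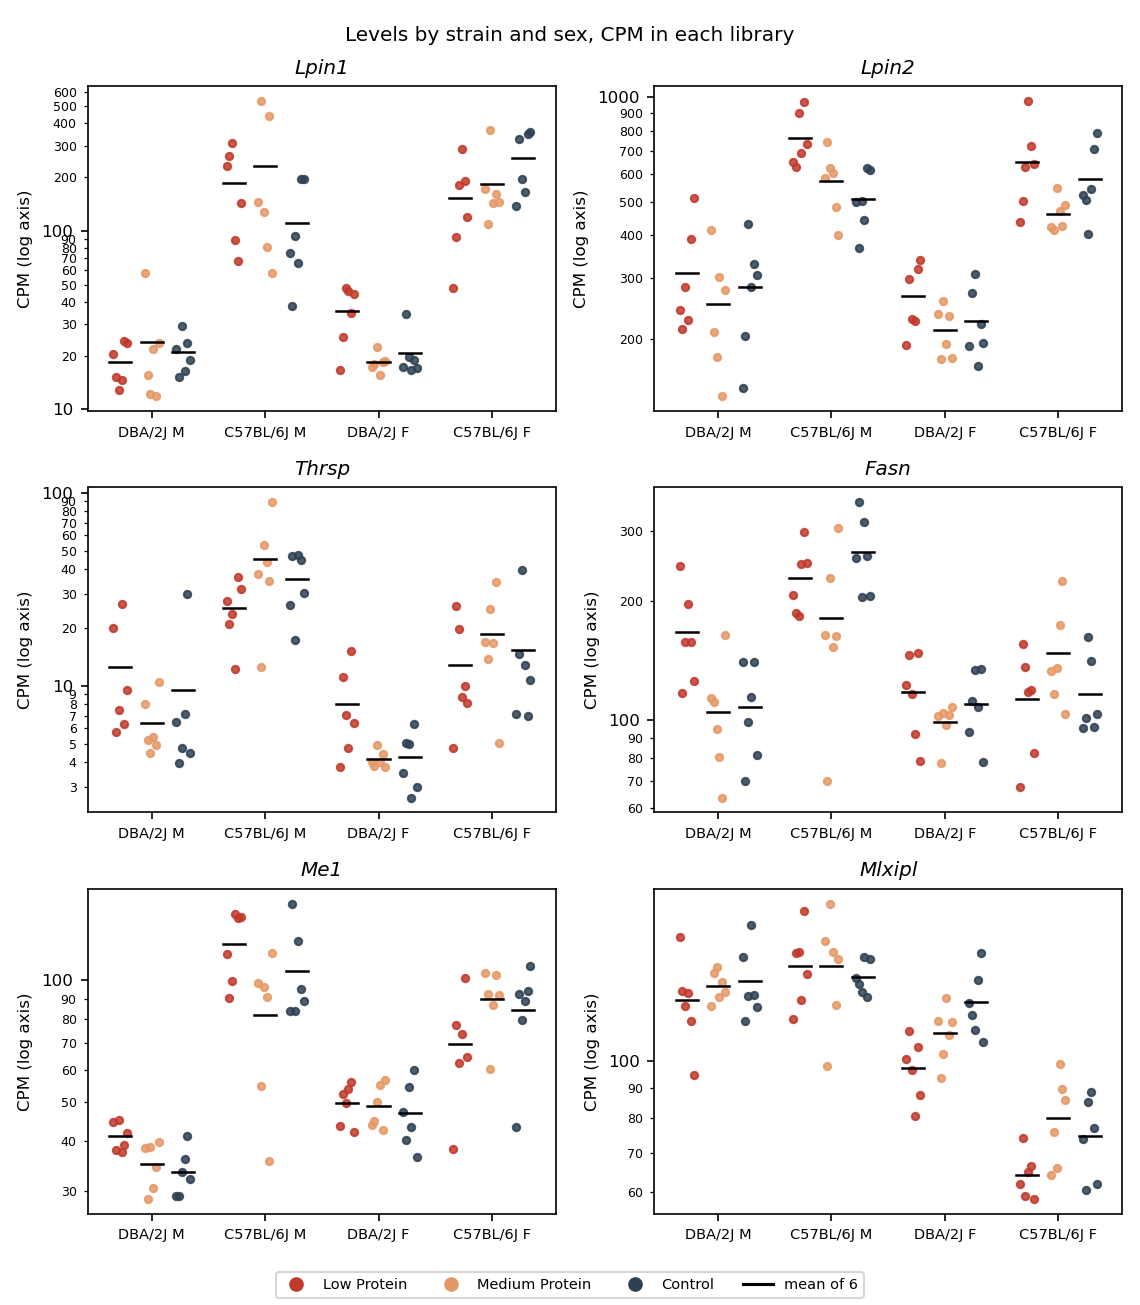
CPM (log axis) of Lpin1, Lpin2, Thrsp, Fasn, Me1 and Mlxipl in each library, with DBA/2J left of C57BL/6J for each sex, coloured by diet, and a bar at the mean of 6 mice. Lpin1 has a median of 19.7 CPM in DBA/2J males against 135 CPM in C57BL/6J males, and Mlxipl has a median of 112 CPM in DBA/2J females against 70.2 CPM in C57BL/6J females.

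With TMM scaling more of the 33 genes were called higher than lower in males, and the list of genes depended on strain. In C57BL/6J 14 of the 33 genes were higher and 4 lower in males, or 54.5% called. Of all genes 42.2% were called there (21.3% higher and 20.9% lower). In DBA/2J 11 were higher and 2 lower, or 39.4% called. Of all genes 39.2% were called there (20.7% higher and 18.5% lower). The split depended on the scaling, since library totals put the median of all genes at -0.245 in C57BL/6J and -0.248 in DBA/2J (log2). They then gave 9 higher and 13 lower in C57BL/6J and 4 higher and 13 lower in DBA/2J. With TMM scaling the median log2 fold change of the 33 genes was 0.162 in C57BL/6J and 0.161 in DBA/2J, against -0.016 and -0.009 over all genes. Called higher in males of both strains were 7 genes, out of 14 and 11, namely Acly, Dgat2, Gpam, Mlxipl, Slc25a1, Taldo1 and Thrsp. The share of all genes called higher in males of both strains was not computed.

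Mlxipl led in C57BL/6J, with 98, 144 and 184 CPM in males, against 58.4, 70.2 and 98.9 CPM in females (log2 0.97 ± 0.07, adjusted p = 7.22e-20). Slc25a1 had 57, 71 and 90.8 CPM in C57BL/6J males, against 36.4, 50 and 59.1 CPM in C57BL/6J females (log2 0.55 ± 0.06, adjusted p = 3.98e-12), and Taldo1 had 36.6, 42 and 52.4 CPM in males, against 25.9, 32 and 41 CPM in females (log2 0.37 ± 0.05, adjusted p = 6.27e-09). Each of the 18 males exceeded the female median for these 3 genes. Mid1ip1 had 3.22, 10.4 and 19.6 CPM in C57BL/6J males, against 2.67, 4.48 and 10.3 CPM in females (log2 1.10 ± 0.16, adjusted p = 8.1e-08). Acsl3 had 11.3, 22.6 and 32.7 CPM in males, against 8.69, 13.2 and 18.4 CPM in females (log2 0.73 ± 0.11, adjusted p = 1.01e-07), and Fasn had 70, 218 and 355 CPM in males, against 67.5, 118 and 224 CPM in females (log2 0.83 ± 0.13, adjusted p = 2.55e-07). Dgat2 (log2 0.42), Acly (0.38), Thrsp (1.16), Acss2 (0.35), Tkt (0.28), Me1 (0.34), Acaca (0.18) and Gpam (0.16) were higher as well. Lower in C57BL/6J males were Acacb (log2 -0.44), G6pdx (-0.27), Scd2 (-0.25) and Dgat1 (-0.20). Srebf1 (log2 0.32, adjusted p = 0.113), Pparg (-0.32, adjusted p = 0.0704) and Scd1 (0.36, adjusted p = 0.29) did not pass. Under library totals Acaca (-0.05) and Gpam (-0.07) took the other sign and Acss2, Tkt and Me1 were not called (0.159, 0.529 and 0.368), and in the Control diet groups alone Acaca (0.157), Me1 (0.227), Dgat1 (0.738), G6pdx (0.129) and Scd2 (0.539) were not called. The Scd2 call was also lost without C57BL/6J F Low Protein replicate 1, Medium Protein replicate 3 or 5 or Control replicate 1 (adjusted p 0.0537 to 0.114) and in limma-voom (0.0599). In the same comparison 6 of 7 macrophage markers were lower and all 5 red blood cell markers higher in males. Lrat was higher and Reln and Dcn lower among 5 stellate cell markers, Clec4g was higher and Pecam1 lower among 4 endothelial markers, Cfd was higher (log2 5.22), and of the hepatocyte genes Serpina1c was higher and Cps1 lower. The part of these markers in the sex differences was not tested.

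Gpam led in DBA/2J, with 130, 182 and 211 CPM in males, against 91.5, 115 and 143 CPM in females (log2 0.63 ± 0.06, adjusted p = 3.46e-15). Taldo1 had 34.2, 38.5 and 48.2 CPM in DBA/2J males, against 23.4, 27.8 and 33.8 CPM in DBA/2J females (log2 0.44 ± 0.05, adjusted p = 3.92e-11). The 2 sexes did not overlap for Taldo1, and the share of all genes without overlap was not counted. Slc25a1 had 58.3, 65.1 and 98.6 CPM in males, against 44.5, 50.3 and 64.5 CPM in females (log2 0.43 ± 0.06, adjusted p = 7.29e-09), and Acly had 72.5, 88.8 and 133 CPM in males, against 59.3, 70.7 and 96.9 CPM in females (log2 0.35 ± 0.06, adjusted p = 4.82e-06). The desaturases of polyunsaturated fatty acids parted: Fads2 was higher, with 204, 320 and 431 CPM in males against 186, 238 and 316 CPM in females (log2 0.40 ± 0.08, adjusted p = 0.000105), and Fads1 was lower, with 270, 352 and 406 CPM in males against 318, 438 and 569 CPM in females (log2 -0.33 ± 0.07, adjusted p = 8.52e-05). Scd1 had 732, 1699 and 6469 CPM in DBA/2J males, against 316, 808 and 2645 CPM in DBA/2J females (log2 1.00 ± 0.27, adjusted p = 0.00242). Dgat2 (log2 0.30), Gpat4 (0.26), Mlxipl (0.25), Thrsp (0.81) and Agpat2 (0.17) were higher too, and Me1 was lower (-0.41, adjusted p = 0.00141), opposite to its call in C57BL/6J. Fasn (0.19, adjusted p = 0.257), Acaca (0.03, adjusted p = 0.703), Srebf1 (0.16, adjusted p = 0.458) and Pparg (-0.28, adjusted p = 0.132) did not pass. Under library totals Agpat2 changed sign (-0.07), and Acly (0.175), Dgat2 (0.51), Fads2 (0.0979), Gpat4 (0.82), Mlxipl (0.903) and Thrsp (0.0578) were not called. Thrsp was also lost without DBA/2J M Control replicate 5 (log2 0.53, adjusted p = 0.0785) and in limma-voom (0.094), and Agpat2 without DBA/2J M Medium Protein replicate 5 (0.0507). In the Control diet groups alone the calls of Agpat2 (0.246), Fads1 (0.134), Gpat4 (0.123), Me1 (0.0587), Mlxipl (0.531), Scd1 (0.145) and Thrsp (0.0686) were lost. Of 5 red blood cell markers 4 were higher in DBA/2J males, as were the stellate cell markers Dcn, Col1a1 and Des, the endothelial markers Clec4g and Pecam1, Fabp4 (log2 0.94) and the hepatocyte genes Apoa1, Ttr and Serpina1c, while Cps1 was lower and none of 7 macrophage markers was called. Their part was likewise not tested.

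The sex difference itself differed between strains for 11 of the 33 genes, more positive in DBA/2J for 5 and more negative for 6. Of all genes 20.2% differed, 9.94% more positive and 10.3% more negative, and under library totals the split of the 33 was 2 and 6. Mlxipl had the smallest adjusted p, and its sex difference differed by -0.72 ± 0.09 (log2, adjusted p = 2.31e-08), from 0.25 in DBA/2J and 0.97 in C57BL/6J. Gpam differed by 0.47 ± 0.08 (adjusted p = 6.62e-06), from 0.63 in DBA/2J and 0.16 in C57BL/6J, and Acsl3 by -0.88 ± 0.15 (adjusted p = 1.35e-05), from -0.15 in DBA/2J and 0.73 in C57BL/6J. Me1 had opposite signs and differed by -0.75 ± 0.15 (adjusted p = 0.000152), and Fasn differed by -0.65 ± 0.18 (adjusted p = 0.00685) and Fads1 by -0.34 ± 0.10 (adjusted p = 0.00916). Mid1ip1 was more negative in DBA/2J as well, and Agpat2, Dgat1, Acsl5 and Gpat4 were more positive, at 0.29, 0.19, 0.27 and 0.25. With the Control diet groups alone Agpat2 took the other sign (-0.10), and Fads1 (0.237), Dgat1 (0.287), Mid1ip1 (0.0549), Acsl5 (0.29) and Gpat4 (0.876) were not called. Gpat4 was lost in 21 of 72 fits that left out 1 library (0.0511 to 0.0669), with no filter (0.0631) and without the 4 ribosomal-rich libraries (0.1). Under library totals Dgat1 (0.0771), Acsl5 (0.0582) and Gpat4 (0.0658) were lost.

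**Figure D4:**
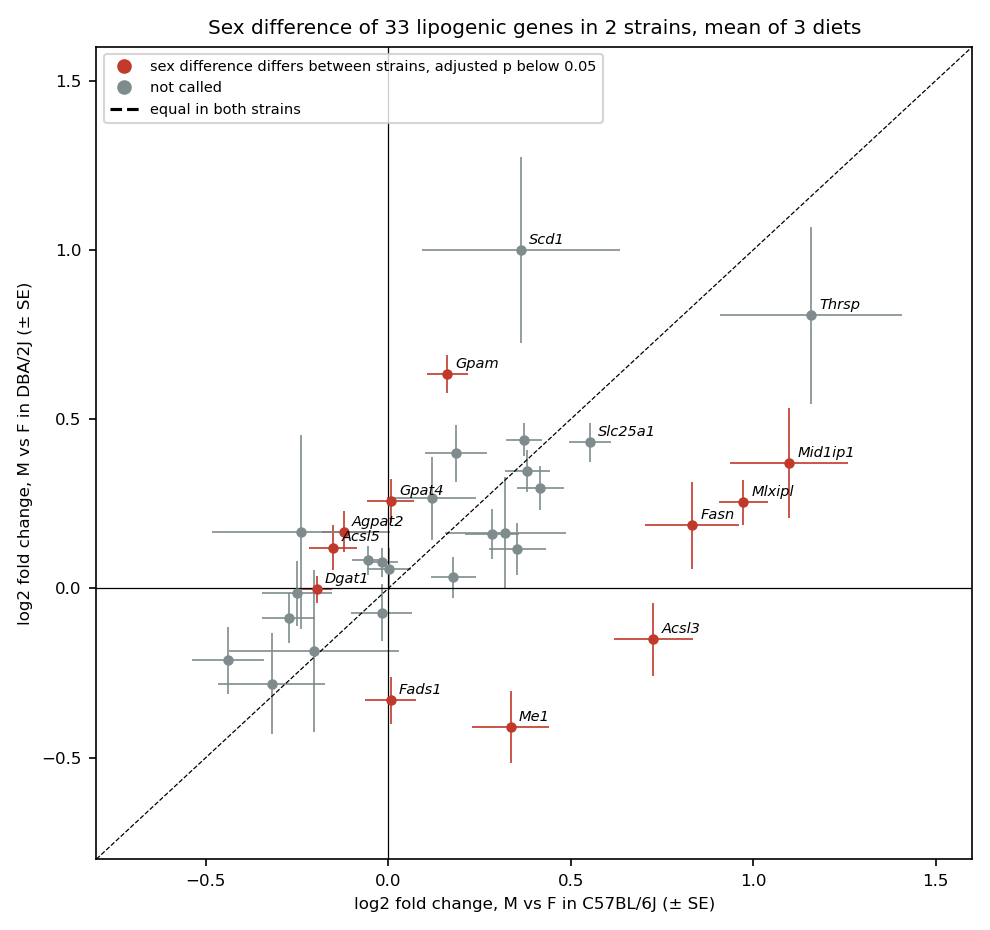
Log2 fold change between males and females of each of the 33 genes in C57BL/6J (horizontal axis) and DBA/2J (vertical axis), averaged over diets, with bars for the SE and a dashed line of equal effects. The 11 coloured genes are those whose sex difference differed between strains, among them Mlxipl at 0.25 in DBA/2J and 0.97 in C57BL/6J, and Gpam at 0.63 in DBA/2J and 0.16 in C57BL/6J.

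Because the mice of a group differed in these genes, the levels of Srebf1 and Mlxipl were compared with those of the other genes between mice, after centring each gene on its group mean. The 63 pairs were tested over 72 libraries with 100000 within-group permutations, adjusted over the 63 pairs, and the smallest raw p that these permutations can give is 1e-05. All genes of a library share its depth and scaling. Correlations with genes outside the list were not computed, so the counts of called pairs have no background share beside them. Srebf1 was positively correlated with 12 and negatively with 2 of 32 genes, with 13 and 1 under library totals, and with 11 and 2 without the 2 libraries farthest from the median of Srebf1. Mid1ip1 had r = 0.726 and rho = 0.693 (raw permutation p = 1e-05 for each, adjusted 0.000126 and 0.00021), and r = 0.709 without those libraries. Thrsp had r = 0.709 and rho = 0.643 (raw permutation p = 1e-05 for each, adjusted 0.000126 and 0.00021), and r = 0.656 without those libraries. Acly had r = 0.656 and rho = 0.569 (raw permutation p = 1e-05 and 2e-05, adjusted 0.000126 and 0.000315), and Fasn r = 0.559 and rho = 0.519 (raw permutation p = 1e-05 and 7e-05, adjusted 0.000126 and 0.00063), with r = 0.605 and 0.526 without those libraries. These 4 genes correlated positively with Srebf1 within each strain and sex, between 0.314 and 0.9 for Mid1ip1, 0.573 and 0.744 for Thrsp, 0.244 and 0.792 for Acly and 0.328 and 0.674 for Fasn, each over 18 libraries. Dgat2 (r = 0.558), Tkt (0.491), Acss2 (0.45), Slc25a1 (0.412), Pgd (0.375), Mlxipl (0.367), Acaca (0.362) and Taldo1 (0.353) were also called positive, and Acacb (-0.373) and Dgat1 (-0.302) negative. Under library totals Dgat1 had r = -0.171 with Srebf1 and was not called (adjusted permutation p = 0.197). Without the 2 farthest libraries Pgd (adjusted permutation p = 0.0504) and Taldo1 (0.0713) were lost. For Pgd and Taldo1 the rank correlation did not pass (rho = 0.256 and 0.237, adjusted permutation p = 0.118 and 0.12). Scd1 was not called, with r = 0.316 and rho = 0.274 (raw permutation p = 0.0255 and 0.0435, adjusted 0.0595 and 0.102).

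Mlxipl was positively correlated with 9 and negatively with 2 of the 31 remaining genes, with 16 and 1 under library totals, and with 7 and 2 without the 2 libraries farthest from the median of Mlxipl. Mid1ip1 had r = 0.583 and rho = 0.571 (raw permutation p = 3e-05 and 1e-05, adjusted 0.00027 and 0.00021), with r = 0.511 without those libraries. Fasn had r = 0.553 and rho = 0.503 (raw permutation p = 1e-05 and 3e-05, adjusted 0.000126 and 0.000378), with r = 0.468 without those libraries, and between 0.467 and 0.679 within each strain and sex. Acaca and Acly (r = 0.49 each), Slc25a1 (0.482), Dgat2 (0.377), Acsl3 (0.357), Fads1 (0.321) and Taldo1 (0.307) were called as well, the last pair by r and not by rho (adjusted permutation p of rho 0.118 and 0.112). Negative were Dgat1 (r = -0.492 and rho = -0.511, raw permutation p = 4e-05 and 0.0001, adjusted 0.000315 and 0.000787) and Lpin1 (r = -0.408 and rho = -0.418, raw permutation p = 0.00126 and 0.0007, adjusted 0.00567 and 0.00367). With library totals in place of TMM, Dgat1 had r = -0.124 (adjusted permutation p = 0.373) and Lpin1 r = -0.45. Without the 2 farthest libraries Acsl3 (adjusted permutation p = 0.0624), Fads1 (0.0713) and Taldo1 (0.11) were lost. With all libraries Fasn, Acly, Acaca, Slc25a1, Dgat2, Mid1ip1 and Taldo1 were called positive and Dgat1 negative with both regulators. Without the 2 farthest libraries 22 of the 63 pairs were called, against 25 with all libraries, and 20 pairs were called both times.

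**Figure D5:**
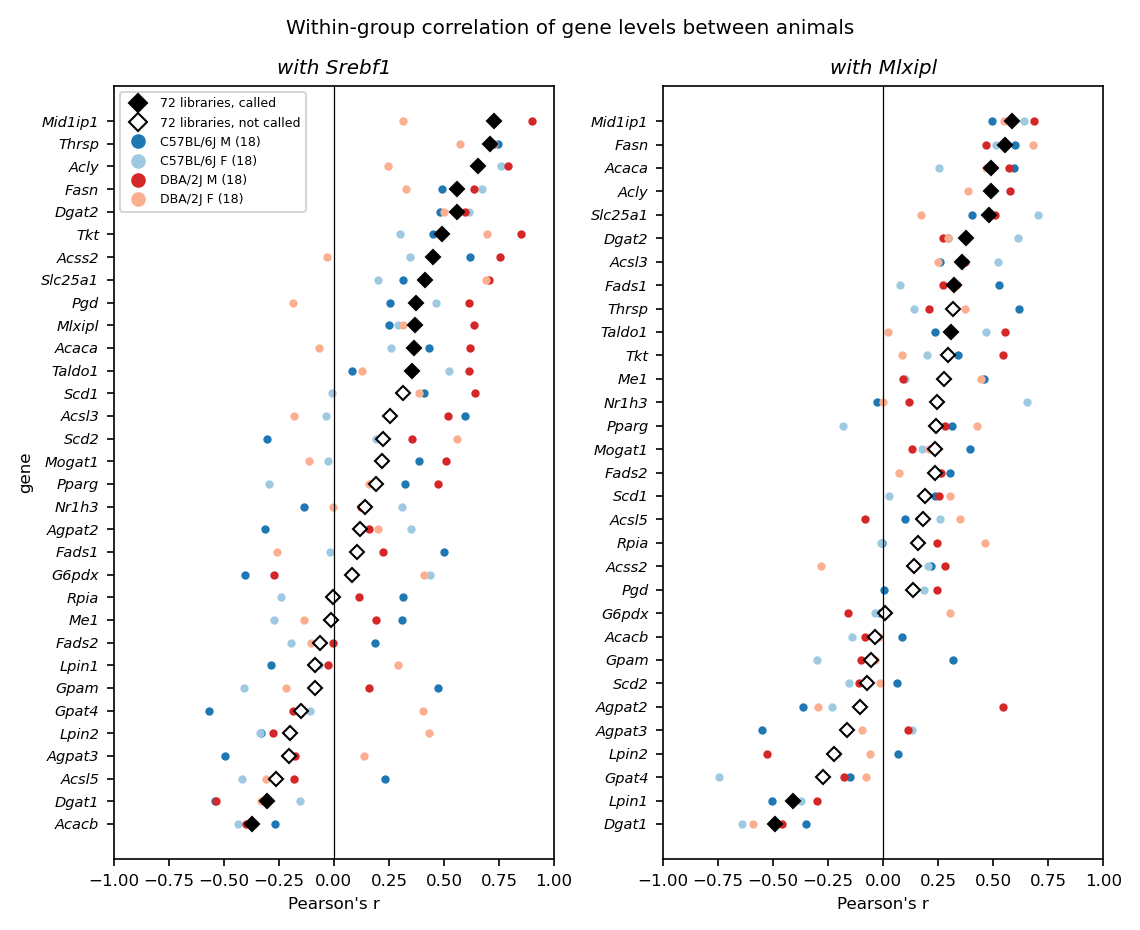
Pearson's r (horizontal axis) of each gene (rows) with Srebf1 (left) and Mlxipl (right) between mice, after centring on the group means, with diamonds for all 72 libraries, filled where called, and dots for the 18 libraries of each strain and sex. Mid1ip1 heads both panels at 0.726 and 0.583, and the called negative pairs are Acacb and Dgat1 with Srebf1 and Lpin1 and Dgat1 with Mlxipl.

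Other genes of the pathway were read from 3 further lists of 70 genes, of which 67 were tested, covering other synthetic enzymes, regulators and their well-known targets, and lipid droplet and uptake genes. On Low Protein against Control, averaged over the combinations, 8 were higher and 4 lower, while 8.01% of all genes were called, and under library totals 18 were higher and none lower. The first were Elovl3, a fatty acid elongase (log2 1.04 ± 0.20, adjusted p = 0.000325), Fitm2, a protein of lipid droplet formation (0.27 ± 0.05, adjusted p = 0.000432), Cidec, a droplet fusion protein (1.07 ± 0.23, adjusted p = 0.00137), and Pnpla2, the triglyceride lipase ATGL (0.36 ± 0.08, adjusted p = 0.00186). Cidec had 0.576, 13.3 and 66.3 CPM on Low Protein, against 0.799, 4.95 and 43.7 CPM on Control. Of the 14 droplet and uptake genes 5 were higher and 2 were lower, with a median log2 fold change of 0.257, against 0.006 over all genes. Low Protein against Medium Protein, averaged likewise, gave 5 higher and none lower, while 3.22% of all genes were called. Under library totals 8 were higher and none lower. In front were again Elovl3 (0.89, adjusted p = 0.00369), Pnpla2 (0.35, adjusted p = 0.00569) and Fitm2 (0.20, adjusted p = 0.018), and then Gpat3, another glycerol-3-phosphate acyltransferase (0.27, adjusted p = 0.0197). Medium Protein against Control, averaged over the combinations, gave none. In C57BL/6J males alone it gave 1 lower, while 0.418% of all genes were called, and 1 higher and 1 lower under library totals.

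Between strains 19 of the 67 were higher and 30 lower in DBA/2J than in C57BL/6J males, and 16 were higher and 32 lower in females, while 51.1% and 49.8% of all genes were called. Under library totals 23 were higher and 25 lower in males, and 19 were higher and 24 lower in females. Gpat3, unlike Gpat4 and Gpam, was higher in DBA/2J males, at 31, 38.5 and 51.9 CPM in DBA/2J against 9.59, 15.8 and 30.7 CPM in C57BL/6J (log2 1.23 ± 0.09, adjusted p = 5.61e-20), with no overlap. Elovl6, the elongase of palmitate, was lower there (-1.15 ± 0.12, adjusted p = 7.56e-13), and Mcat, of mitochondrial fatty acid synthesis (0.51, adjusted p = 1.13e-15), and Fabp2, a fatty acid binding protein (0.82, adjusted p = 4.59e-12), were higher. In DBA/2J females Cidec was lower (-3.46 ± 0.28, adjusted p = 4.43e-17), with 0.576, 1.79 and 5.34 CPM in DBA/2J against 4.4, 19.9 and 66.3 CPM in C57BL/6J, as were Fitm2 (-0.69, adjusted p = 2.71e-15), Hacd3, a dehydratase of elongation (-0.44, adjusted p = 9.35e-14), and Pnpla2 (-0.93, adjusted p = 2.28e-13). Between sexes Elovl3 was higher in males of both strains (4.48 ± 0.26 in C57BL/6J, adjusted p = 1.42e-23, and 4.87 ± 0.25 in DBA/2J, adjusted p = 7.48e-26), as was Acsl1, an acyl-CoA synthetase (0.99, adjusted p = 8.72e-22, and 0.97, adjusted p = 1.17e-21), and Vldlr, a lipoprotein receptor, was lower (-2.49, adjusted p = 8.99e-15, and -3.44, adjusted p = 2.48e-19). H6pd, a hexose-6-phosphate dehydrogenase, was higher in C57BL/6J males (0.83, adjusted p = 3.8e-20), and Tm6sf2, a protein of lipoprotein secretion, was lower in DBA/2J males (-1.03, adjusted p = 7.56e-19). In all, 27 of these 67 genes were higher and 20 lower in C57BL/6J males than females, and 31 were higher and 12 lower in DBA/2J males than females, while 42.2% and 39.2% of all genes were called. These splits turned round under library totals, with 11 higher and 36 lower in C57BL/6J and 12 higher and 23 lower in DBA/2J.

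The authors' deposited table of comparisons, made with their own fit, called 3 of the 33 genes on Low Protein against Control in C57BL/6J males (1 higher and 2 lower), 4 in C57BL/6J females (all higher), 0 in DBA/2J males and 1 in DBA/2J females. In the authors' deposited table Low Protein against Medium Protein gave 3 in C57BL/6J males and 2 in C57BL/6J females, and Medium Protein against Control gave 0 in every combination.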

How the data were processed

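Whole-liver RNA of 72 mice was sequenced from stranded polyA-enriched libraries whose 2 sequencing lanes were merged, per the labels. The authors deposited RSEM expected counts per gene, of which 11.6% were not whole, and these were rounded to whole numbers here. R 3.4.3, limma, edgeR and RSEM appear in the submitters' processing notes, and neither aligner nor genome build was given in the sources used here. The authors' deposited table of comparisons holds log2 fold changes, p-values and an F statistic (a score, not used here).

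Counts were scaled by TMM, filtered with filterByExpr and fitted in edgeR 4.0.16 (R 4.3.3, limma 3.58.1) with 1 quasi-likelihood model of 12 group means. It was tested on simulated data, and its common biological coefficient of variation was 0.207. Of 51912 genes, 19362 were tested in each of 24 comparisons, and the Benjamini-Hochberg adjusted p had to be below 0.05 for a call. CPM are the TMM-scaled counts per 1000000, and log2 CPM for correlations used a prior count of 1 and Python 3.11.15 with scipy 1.17.1. Counts per gene are not divided by length, so levels are compared between mice and not between genes. The totals of 26937142 to 38447469 counts set the counting error, and the spread between mice is the error printed.

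The 33 genes, the lists of 70 neighbouring genes and the cell type markers were chosen with earlier results of these data known. Named with full values were up to 6 of the 33 genes with the smallest adjusted p below 0.05 in a comparison, and otherwise the 2 with the smallest p. Srebf1, Fasn, Scd1, Acaca, Acly, Gpam, Dgat2, Mlxipl and Pparg were always described, and from the neighbouring genes up to 4 per comparison were named. Genes outside this rule that are named with a value were chosen after their values were seen. Symbols were matched by Ensembl identifier for 51633 genes, and 279 had none.

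Alternatives were DESeq2 size factors in edgeR (RLE), library totals, no filter on low counts, limma-voom, DESeq2 1.42.0, only the compared groups, only the Control diet groups for strain and sex, and leaving out each library. A fit without the 4 libraries with over 3% ribosomal-like RNA was chosen after seeing the data, as were library totals for the neighbouring genes.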

Additional observations from a re-analysis of the deposited data

Results flagged for a closer look

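In each group of 6 mice the highest or lowest library was tested for a gap to the others above Dixon's 95% critical value. This happened in 30 of 396 combinations of gene and group (7.58%), and it concerned 19 genes and 21 libraries. Chance gives about 1 in 20 for independent, normally distributed values. Here CPM were tested without logs and several of the genes vary together, so the excess is not read as a result. The odd library was the highest in 24 of the 30 combinations and the lowest in 6, and DBA/2J F Control replicate 2 was the odd one 5 times. Its level was 113 CPM for Agpat2 (93.8 to 98.6 CPM in the other 5 mice), 34.1 CPM for Lpin1 (16.7 to 19.7), 2143 CPM for Scd1 (316 to 843), 64.5 CPM for Slc25a1 (47.6 to 52.1) and 51.9 CPM for Tkt (35.3 to 41). In the same group replicate 3 had 316 CPM of Fads2 (213 to 245 in the others) and 143 CPM of Gpam (91.5 to 105).

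The other high libraries of DBA/2J were as follows. Acss2 reached 95.6 CPM in M Low Protein replicate 4 (57.8 to 70.1 in the others), and Gpat4 213 CPM in M Low Protein replicate 2 (150 to 165). Lpin1 reached 58.1 CPM in M Medium Protein replicate 1 (11.9 to 23.5), and Scd1 3309 CPM in M Medium Protein replicate 6 (872 to 1760). In M Control replicate 5 Pparg reached 7.22 CPM (2.74 to 4.18) and Thrsp 29.9 CPM (3.99 to 7.1), and without this library the higher level of Thrsp in DBA/2J males than females was no longer called (adjusted p = 0.0785 in edgeR). G6pdx reached 8.71 CPM in F Low Protein replicate 5 (5.29 to 5.83), and Tkt 47.5 CPM in F Low Protein replicate 3 (39.1 to 41.8). Fasn was low in F Medium Protein replicate 2, at 78 CPM (96.8 to 108).

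In C57BL/6J males on Low Protein, replicate 4 was high for Agpat2, at 106 CPM (72.5 to 84.6 in the others), and for Agpat3, at 269 CPM (192 to 217). Acacb was low in replicate 1, at 71.8 CPM (99.8 to 115), and Rpia in replicate 3, at 2.47 CPM (3.46 to 3.83). On Control, Dgat2 reached 340 CPM in replicate 5 (276 to 297), and Fads2 fell to 194 CPM in replicate 4 (280 to 314). In C57BL/6J females on Low Protein, Gpam was low in replicate 1, at 146 CPM (179 to 196), where Scd2 was high, at 10.5 CPM (4.23 to 6.03), and Scd1 reached 3498 CPM in replicate 5 (441 to 1220). On Medium Protein, Gpam was low in replicate 4, at 141 CPM (172 to 183), and Lpin1 high in replicate 3, at 367 CPM (110 to 171). On Control, Scd2 reached 9.25 CPM in replicate 1 (4.39 to 5.99), and replicate 3 had 39.7 CPM of Thrsp (6.92 to 14.6) and 37.8 CPM of Taldo1 (25.9 to 29.4).

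An effect also differed between groups by a direct test in 17 cases, all described above (edgeR's quasi-likelihood test, adjusted p below 0.05). The response to Low Protein differed between DBA/2J and C57BL/6J males for Acly (0.69), Acss2 (0.85) and Agpat2 (0.52), and between C57BL/6J males and females for Acss2 (-0.69), Agpat2 (-0.70) and Dgat1 (-0.39). The sex difference differed between DBA/2J and C57BL/6J for Agpat2 (0.29), Dgat1 (0.19), Fads1 (-0.34), Fasn (-0.65), Gpam (0.47), Gpat4 (0.25), Me1 (-0.75), Mid1ip1 (-0.73), Mlxipl (-0.72), Acsl3 (-0.88) and Acsl5 (0.27), all on the log2 scale.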

How the results depend on the processing

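Under library totals the called genes numbered 11, against 3 with TMM, for Low Protein against Control in C57BL/6J males, 1 against 4 in C57BL/6J females, 1 against 0 in DBA/2J males, 0 against 1 in DBA/2J females and 11 against 4 over the mean of the combinations. For Low Protein against Medium Protein they numbered 8 against 4 in C57BL/6J males and 1 against 2 in C57BL/6J females. The median log2 fold change of the 33 genes changed sign with library totals: 0.156 against -0.042 for Low Protein against Medium Protein in C57BL/6J males, 0.166 against -0.078 for Low Protein against Control in C57BL/6J males, -0.066 against 0.162 for males against females in C57BL/6J, -0.079 against 0.161 in DBA/2J, and 0.107 against -0.118 for the difference of the Low Protein response between C57BL/6J males and females. The Low against Medium Protein median in C57BL/6J males was also above 0 in limma-voom (0.034) and without the 4 ribosomal-rich libraries (0.052), and that of the strain difference of the sex effect was -0.118 with Control diet groups only, against 0.038. Under library totals the median of all genes was 0.109 for the difference of the Low Protein response between DBA/2J males and females. It was -0.172 for the difference of that response between strains in males. Signs changed for Acaca (-0.048) and Gpam (-0.066) between the sexes of C57BL/6J and for Agpat2 in DBA/2J (-0.072) under library totals, and for Agpat2 in the strain difference of the sex effect (-0.097) with Control diet groups only.

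With no filter on low counts 2 genes were called for Low Protein against Control in C57BL/6J females, 0 in DBA/2J females, and, against Medium Protein, 2 in C57BL/6J males and 3 over the mean, where leaving out the 4 ribosomal-rich libraries also gave 3. With only the compared groups, Low Protein against Control gave 6 in C57BL/6J males, 1 in C57BL/6J females and 0 in DBA/2J females, and Low Protein against Medium Protein gave 0 in either sex of C57BL/6J. DESeq2 gave 1 in DBA/2J males. Control diet groups only gave 6 called genes between the sexes of DBA/2J and 7 for the strain difference of the sex effect. The causes were not tested. The setting with Control diet groups only kept all 72 libraries in the fit and compared only the Control groups.

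Leaving out 1 library at a time gave, for Low Protein against Control, 1 to 4 calls in C57BL/6J males, 1 to 4 in C57BL/6J females, 0 to 1 in each sex of DBA/2J and 3 to 5 over the mean. Low Protein against Medium Protein gave 1 to 4 and 1 to 2 in C57BL/6J males and females, 0 to 1 in DBA/2J females and 2 to 5 over the mean, and the difference of the response gave 2 to 4 between C57BL/6J sexes and between strains in males. Of 114 gene calls, 89 held in every such fit and 25 did not, with no change of sign. Under the other settings 783 values were recomputed, of which 689 kept their call and direction, 90 lost the call and 4 changed sign. Of the 63 correlations 31 were called under library totals, against 25 with TMM, and 23 were called both times. No paired analysis was possible because replicate numbers follow accession order only.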
